A study of Homo sapiens with 6 samples.

Results

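The expression of 8 genes of TGFβ ligands and the proteins around them was followed in Panc-1 cells, namely the ligand genes TGFB1, TGFB2 and TGFB3, the binding protein genes LTBP1, LTBP2, LTBP3 and LTBP4, and TGFBI. They are 8 of the 19777 genes that the platform's annotation names alone on at least 1 probe set of the Affymetrix U133 Plus 2.0 array, and members were all probe sets annotated to just 1 of these genes, 21 of 41091. Panc-1 is an established line grown from a human pancreatic adenocarcinoma. All cultures were kept without serum for 24 h. In the TGFβ group, 3 cultures then received 5 ng/mL of porcine TGFβ1 for 48 h, and in the untreated group 3 received plain medium, with 1 array each. The labels and the study's methods name the same figure for the dose in different units (ng/mL and nM), and the labels are followed here. The experiment was repeated 3 times in 1 cell line, so the spread between arrays is that between repeats of 1 line. Added protein brings no message of its own, so the arrays read the RNA that the cells made, and fewer cells of a type cannot be told apart from less RNA per cell.

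TGFβ ligands are secreted in a silent form. Each precursor is cut by a furin-type protease, the released propeptide stays wrapped around the mature ligand, and in most cells this latent complex is joined by disulfide bonds to a latent TGFβ binding protein (LTBP), which anchors it to fibrillin microfibrils and fibronectin in the matrix. Integrins, proteases and thrombospondin then free the ligand. TGFBI, which encodes a matrix protein with fasciclin domains that binds collagens and integrins, is named for its induction by TGFβ and takes no part in latency.

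Values are log2 signals of a probe set, and the filter on low signal, taken from the study's methods, is a mean of at least 100 (6.64 on the log2 scale) in at least 1 group. The 6 array medians ran from 5.14 to 5.21. Between the groups, the 3' to 5' difference of the ACTB control probe sets, a measure of RNA integrity, was 0.554 ± 0.031 without and 0.335 ± 0.060 with TGFβ (log2, SD, n = 3), while that of GAPDH was -0.0096 ± 0.0096 and -0.028 ± 0.023. The part of this shift in the results below was not tested. Of 5 epithelial marker genes, KRT8, KRT18 and EPCAM were above the limit in both groups and lower with TGFβ (log2 fold change -2.18 to -0.80). CDH1 was above it in the untreated group only (7.58 without and 5.56 with TGFβ), and KRT19 did not pass. All 6 fibroblast, 3 leukocyte and 4 endothelial marker genes with probe sets of their own stayed below the limit in both groups, with means from 3.43 to 5.72.

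With TGFβ, messages of 2 ligands, 1 binding protein and TGFBI were higher and that of another binding protein was lower. LTBP2 rose 10.3-fold, TGFB1 2.61-fold, TGFBI 2.54-fold and TGFB2 1.35-fold, LTBP1 fell 1.20-fold, and LTBP3 did not pass the test. TGFB3 and LTBP4 were below the limit on all their probe sets in both groups. Of the 6 genes measured, 4 were thus higher and 1 lower at a limma adjusted p under 0.05, against 58.7% of all 10115 genes tested, 27.7% higher and 31.0% lower. Of 11 probe sets that passed, all of them in both groups, 7 were higher, 1 lower and 3 not called, against 55.1% called (26.6% higher) among all 19101. The methods' paired t-test at an unadjusted p under 0.05 called 6 of the 11 on log2 and 7 on linear values, against 45.2% and 45.0% of all. The groups did not overlap in 8 of the 11, against 65.5% of all. With calls this common among all genes, a call by itself says little about these, and the sizes are given for each.

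**Figure D1:**
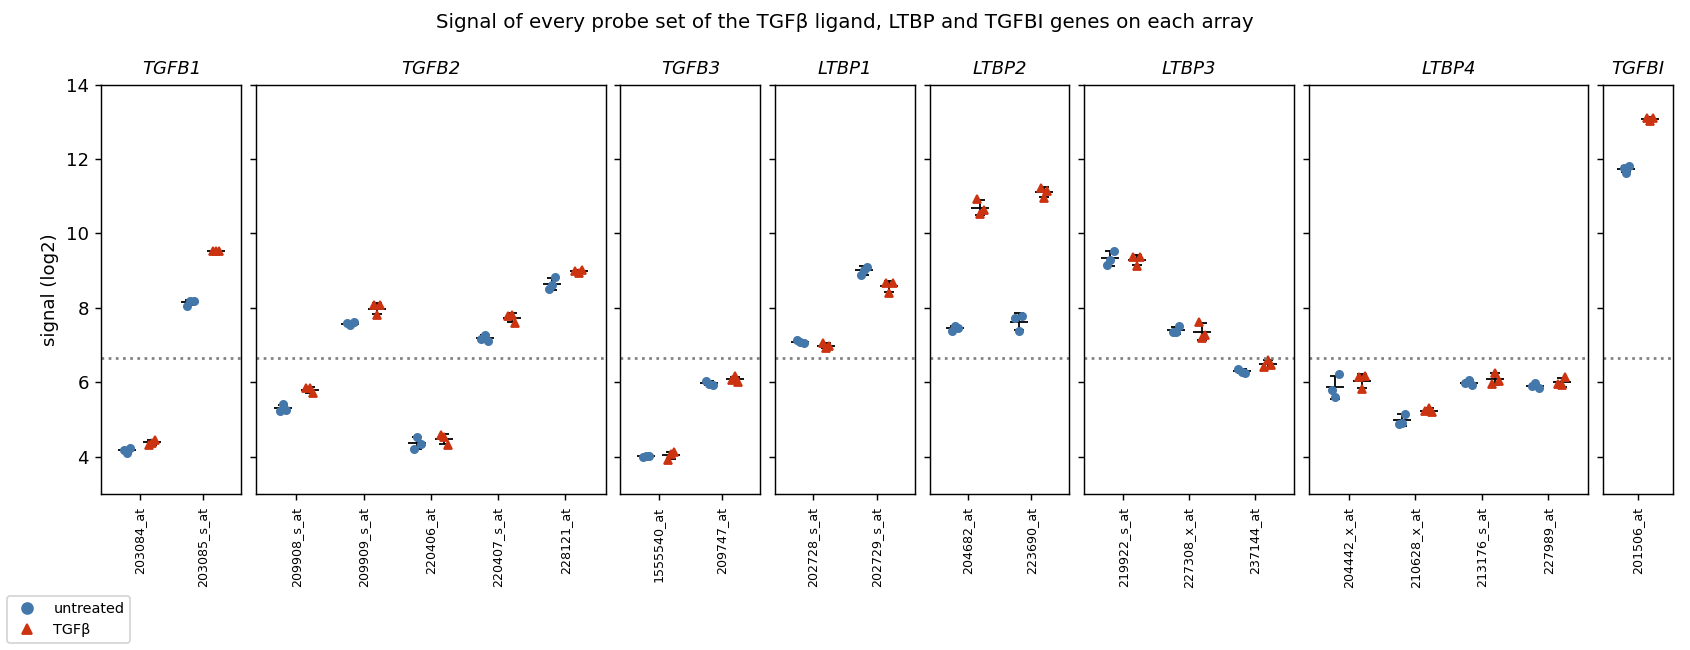
Log2 signal (vertical axis) of each of the 21 probe sets, named on the horizontal axis and grouped by gene. Each circle is 1 of 3 untreated arrays and each triangle 1 of 3 TGFβ arrays, black bars are group means with their SD, and the dotted line at 6.64 corresponds to a signal of 100. Both LTBP2 probe sets go from below 8 to above 10, and all probe sets of TGFB3 and LTBP4 lie under the line.

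TGFB1 encodes the ligand isoform that was itself added to the cultures. Its probe set 203085_s_at read 8.06, 8.17 and 8.20 on the untreated arrays and 9.52, 9.54 and 9.53 on the TGFβ arrays. The groups lay far apart, and the SD of the TGFβ arrays was 0.0123. The log2 fold change was 1.38 (SE 0.052, 95% interval 1.26 to 1.51, limma adjusted p = 1.32e-05), higher in 3 of 3 same-numbered pairs, and only 2.00% of the genes tested had a larger absolute change. The second TGFB1 probe set, 203084_at, was below the limit at 4.18, 4.11 and 4.25 without and 4.32, 4.38 and 4.46 with TGFβ. Its groups did not overlap either, but its log2 fold change of 0.21 (SE 0.073) did not pass limma when every probe set was entered (adjusted p = 0.0934). The gene's value therefore rests on 1 probe set, and it was 0.79 where the dim one was averaged in.

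TGFB2 encodes a ligand isoform that needs the co-receptor betaglycan for efficient binding to the signalling receptors. It has 5 probe sets, of which 3 passed. Probe set 220407_s_at read 7.16, 7.27 and 7.10 without and 7.78, 7.82 and 7.59 with TGFβ, a log2 fold change of 0.55 (SE 0.058). For 209909_s_at the arrays gave 7.58, 7.53 and 7.61 against 8.07, 7.81 and 8.07, a log2 fold change of 0.41 (SE 0.065). All TGFβ arrays were above all untreated arrays in both. Probe set 228121_at gave 8.52, 8.60 and 8.83 against 9.00, 8.93 and 9.00, a log2 fold change of 0.33 (SE 0.073), with 1 untreated array close to the TGFβ group. As a gene TGFB2 rose by 0.43 on the log2 scale (SE 0.055, limma adjusted p = 0.00109), higher in 3 of 3 pairs. Of the dim probe sets, 209908_s_at moved from 5.30 ± 0.097 to 5.80 ± 0.078 (log2, SD, n = 3) and passed limma without the filter (adjusted p = 0.00269). It was the 1 of the 10 dim member probe sets to do so. Over all probe sets so tested 20.2% were called (9.22% higher), but these include bright ones, so that is not the share among dim probe sets. Probe set 220406_at did not pass (log2 fold change 0.11, SE 0.096, adjusted p = 0.504) and its groups overlapped. After Benjamini-Hochberg adjustment the methods' t-test did not call the TGFB2 gene (adjusted p = 0.0522 on log2 and 0.054 on linear values).

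TGFB3, the remaining ligand gene, was below the limit throughout. Its probe set 209747_at read 6.04, 5.96 and 5.92 without and 6.07, 6.16 and 6.01 with TGFβ, and 1555540_at read 3.98, 4.03 and 4.02 against 3.92, 4.07 and 4.12. The groups overlapped in both. With every probe set entered the gene's log2 fold change was 0.064 (SE 0.057, 95% interval -0.073 to 0.20, adjusted p = 0.486). Without the filter 26.8% of all genes, bright ones included, were called. Dim signals can understate changes, which was not tested here.

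LTBP2 encodes the one LTBP that does not bind the latent complex and is a structural protein of microfibrils. Probe set 204682_at read 7.38, 7.51 and 7.46 without and 10.92, 10.52 and 10.63 with TGFβ. Probe set 223690_at read 7.72, 7.37 and 7.79 against 11.23, 10.96 and 11.15. Both probe sets were above the limit in both groups, and the gap between the groups was many times the spread within either. The log2 fold changes were 3.24 (SE 0.105) and 3.49 (SE 0.066), and that of the gene was 3.36 (SE 0.066, 95% interval 3.20 to 3.52, limma adjusted p = 3.80e-06). By absolute change LTBP2 was in place 5 of the 10115 genes, and by rise in place 3.

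LTBP1 encodes the binding protein that was first found in the large latent complex. Its probe set 202729_s_at read 8.89, 9.01 and 9.11 without and 8.68, 8.40 and 8.66 with TGFβ, a log2 fold change of -0.42 (SE 0.084, limma adjusted p = 0.00674). All 3 TGFβ arrays were below all untreated arrays. Probe set 202728_s_at read 7.14, 7.07 and 7.07 against 7.07, 6.91 and 6.98, where the groups met, and its log2 fold change of -0.11 (SE 0.055) did not pass (limma adjusted p = 0.151). The gene fell by 0.26 on the log2 scale (SE 0.061, adjusted p = 0.0112), lower in 3 of 3 pairs. This call was lost without replicate 2 (log2 fold change -0.21, adjusted p = 0.0842) and in the methods' t-test after adjustment (adjusted p = 0.118 on log2 and 0.109 on linear values).

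LTBP3, whose product also binds latent TGFβ, did not pass. Probe set 219922_s_at read 9.16, 9.29 and 9.54 without and 9.37, 9.13 and 9.38 with TGFβ, and 227308_x_at read 7.34, 7.36 and 7.51 against 7.63, 7.18 and 7.28. The groups overlapped in both, and pair 1 moved up where pairs 2 and 3 moved down. At the level of the gene the pair differences were 0.25, -0.17 and -0.19, and the log2 fold change was -0.037 (SE 0.095, 95% interval -0.27 to 0.19, limma adjusted p = 0.755). Without replicate 1 the gene was called lower (-0.18, adjusted p = 0.0171), so the call for LTBP3 changes with the repeats used. Its remaining probe set, 237144_at, was just below the limit, going from 6.30 ± 0.050 to 6.49 ± 0.097 (log2, SD, n = 3).

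LTBP4 encodes a binding protein that takes part in elastic fibre assembly. All 4 of its probe sets were below the limit, with group means from 4.99 to 6.08. Their log2 fold changes ran from 0.089 for 213176_s_at to 0.25 for 210628_x_at, and none passed limma without the filter (adjusted p = 0.0957 to 0.530). With all 4 averaged the gene's log2 fold change was 0.15 (SE 0.055, 95% interval 0.023 to 0.29, adjusted p = 0.0852).

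TGFBI was read by 1 probe set, 201506_at, at 11.75, 11.63 and 11.80 without and 13.10, 13.01 and 13.10 with TGFβ. The groups were well apart. The log2 fold change was 1.34 (SE 0.049, 95% interval 1.22 to 1.46, limma adjusted p = 1.25e-05), higher in 3 of 3 pairs. The fasciclin domain relatives POSTN, STAB1 and STAB2 were below the limit in both groups.

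**Figure D2:**
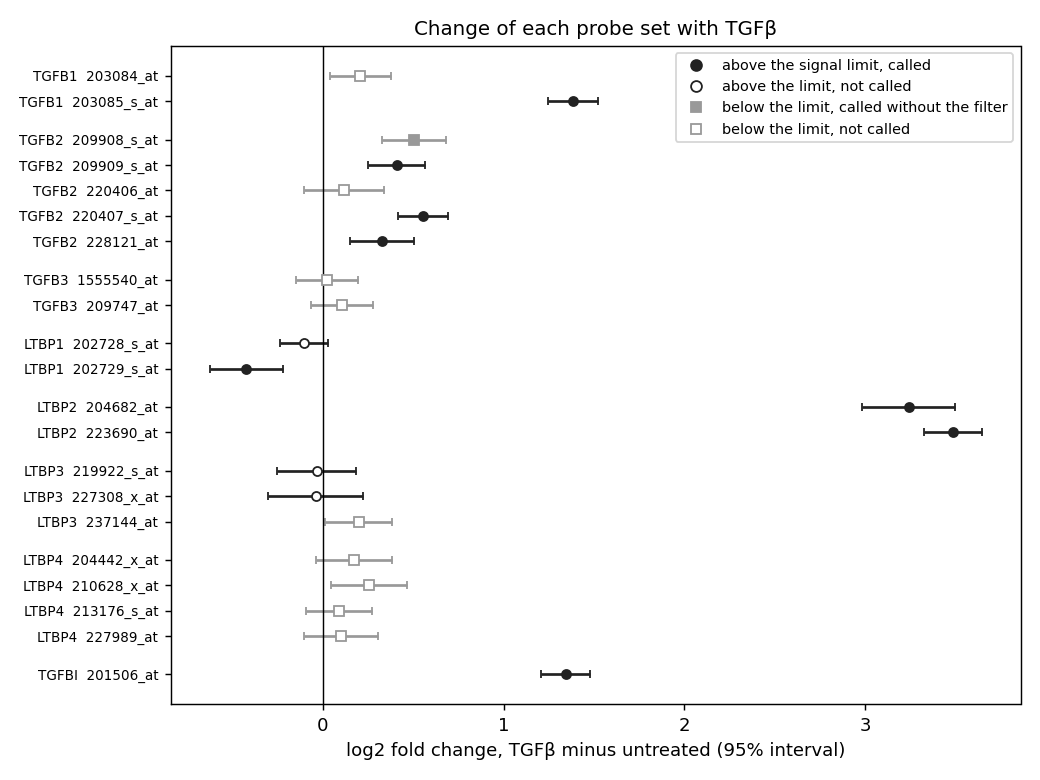
Log2 fold change, TGFβ minus untreated, with its 95% interval (horizontal axis) for each probe set. Black circles are probe sets above the signal limit and grey squares those below it, fitted without the filter, and filled symbols passed limma at an adjusted p under 0.05. The LTBP2 probe sets stand at 3.24 and 3.49, TGFB1 203085_s_at and TGFBI at 1.38 and 1.34, and LTBP1 202729_s_at at -0.42.

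Probe sets of 1 gene agreed in direction wherever more than 1 passed, with both of LTBP1 negative, both of LTBP2 positive and all 3 of TGFB2 positive. Both of LTBP3 were slightly negative (-0.035 and -0.040) and not called. The LTBP3 probe set just below the limit, 237144_at, went the other way (log2 fold change 0.20, limma adjusted p = 0.136 without the filter). Sizes were less alike among the probe sets of a gene. For LTBP1 the log2 fold changes were -0.42 and -0.11, and for TGFB2 they ran from 0.33 to 0.55. Signals of different probe sets cannot be set against each other as levels, so no order of abundance among the 8 genes is given. The log2 differences within pairs 1, 2 and 3 were 1.45, 1.36 and 1.33 for TGFB1 and 0.53, 0.39 and 0.37 for TGFB2. TGFB1 changed more than TGFB2 in each pair, though that contrast between the ligands was not tested. The pairs gave 3.52, 3.30 and 3.27 for LTBP2, and -0.14, -0.38 and -0.27 for LTBP1. TGFBI gave 1.35, 1.38 and 1.30. For TGFB1, TGFB2, LTBP1, LTBP2 and LTBP3, pair 1 had the highest of the 3 differences.

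**Figure D3:**
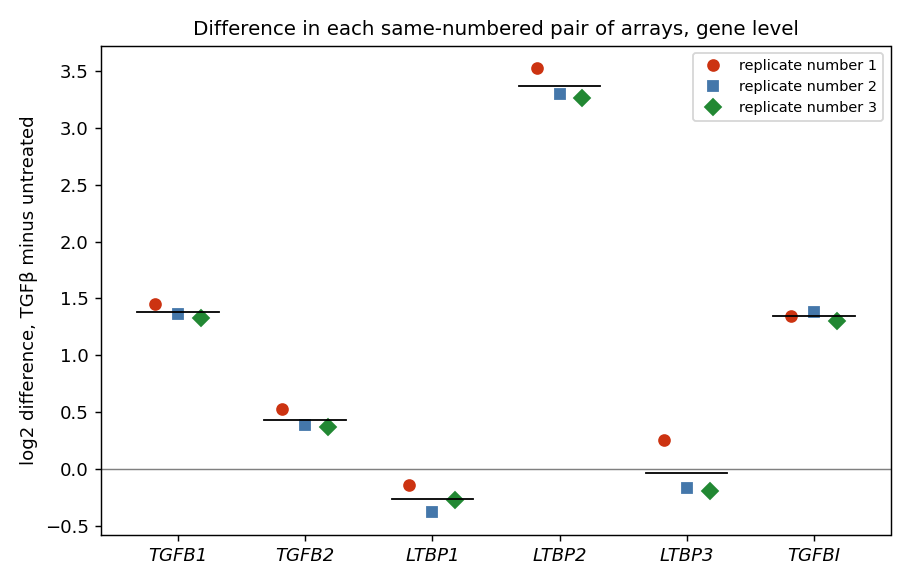
Difference in log2 signal, TGFβ minus untreated (vertical axis), in each of the 3 same-numbered pairs of arrays for the 6 genes measured, where bars are means. The pairs of TGFB1 and TGFBI lie close together, and those of LTBP3 lie on both sides of 0, at 0.25, -0.17 and -0.19.

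The promoters of the 4 genes that rose are shown, since these were the members with a called rise. The sequences are the 250 bases before the RefSeq start of each gene, 5′ to 3′ on the gene's strand (GRCh38.p14). They are chr19:41353923-41354172 (minus strand) for TGFB1, chr1:218345086-218345335 (plus strand) for TGFB2, chr14:74612238-74612487 (minus strand) for LTBP2 and chr5:136028738-136028987 (plus strand) for TGFBI. Capitals mark matches on either strand to 4 short motifs. The letters CAGAC hold the core that SMAD proteins bind. The AP-1 factors bind TGANTCA. SP1 binds the box GGGCGG. The TATA box was searched as TATAAA.
TGFB1: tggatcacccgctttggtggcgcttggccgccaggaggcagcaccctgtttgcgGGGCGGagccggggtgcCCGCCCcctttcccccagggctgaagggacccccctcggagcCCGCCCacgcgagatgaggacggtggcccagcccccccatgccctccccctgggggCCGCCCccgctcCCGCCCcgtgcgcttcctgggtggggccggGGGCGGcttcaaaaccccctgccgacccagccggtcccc
TGFB2: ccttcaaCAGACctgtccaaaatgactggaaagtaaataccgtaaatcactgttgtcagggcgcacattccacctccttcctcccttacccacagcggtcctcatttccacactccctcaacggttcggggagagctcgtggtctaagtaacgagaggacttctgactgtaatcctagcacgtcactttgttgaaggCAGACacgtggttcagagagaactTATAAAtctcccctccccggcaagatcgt
LTBP2: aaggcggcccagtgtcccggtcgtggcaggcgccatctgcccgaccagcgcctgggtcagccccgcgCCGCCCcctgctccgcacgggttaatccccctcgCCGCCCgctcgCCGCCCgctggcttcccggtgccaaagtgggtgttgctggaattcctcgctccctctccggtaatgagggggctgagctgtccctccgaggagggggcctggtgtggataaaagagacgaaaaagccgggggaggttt
TGFBI: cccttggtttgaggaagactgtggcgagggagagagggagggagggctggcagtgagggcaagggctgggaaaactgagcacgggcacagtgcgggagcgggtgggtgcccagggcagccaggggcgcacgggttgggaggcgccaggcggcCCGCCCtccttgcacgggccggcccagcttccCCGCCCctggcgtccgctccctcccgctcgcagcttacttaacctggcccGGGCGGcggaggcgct

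The SP1 letters were found 6 times before TGFB1, 3 times before LTBP2, 3 times before TGFBI and not before TGFB2, and 42.6% of 35116 promoters in the table hold them. The TGFB2 window has 2 matches to CAGAC (38.0% of promoters hold it) and a TATA box 29 bases before the start (10.7% of promoters). TGANTCA, held by 6.57% of promoters, was in none of the 13 windows of the 8 genes. The G and C content of the 4 windows was 76.8% for TGFB1, 50.4% for TGFB2, 68.8% for LTBP2 and 72.8% for TGFBI, so TGFB2 differs from the others in composition as well. Among the other members CAGAC was before LTBP1, in all 3 of its windows, and also before TGFB3 (2 matches) and LTBP4 (1 match), neither of which was measured above the limit. The SP1 letters were also before LTBP3 and LTBP4. A match describes letters only, and the table's starts need not be those used in Panc-1 cells.

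Genes that act on the latent complex were taken from a list of 20, of which 12 were measured. The integrin gene ITGB6 on this list had no probe set naming it alone, so it could not be read. Counted over the 7 that were above the signal limit in both groups, 5 rose, 1 fell and 1 did not pass (median log2 fold change 0.56). Among all 9561 genes so measured, 57.0% were called, 2629 higher and 2821 lower, and the median was -0.0082. FURIN, a protease that cuts the TGFβ precursors, rose from 7.35 ± 0.124 to 7.91 ± 0.105 (log2, SD, n = 3). ITGAV, the α chain of the integrins that pull ligand from its propeptide, rose from 12.2 ± 0.087 to 12.9 ± 0.060 (log2, SD, n = 3). PLAU, the urokinase gene of plasmin activation, rose by 0.89 on the log2 scale (SE 0.050), and MMP2, a gelatinase, by 0.86 (SE 0.055), or by 0.32 with its dim probe sets averaged in. NRP1, a receptor that can bind latent TGFβ, fell by 0.72 (SE 0.095), a call lost with all probe sets entered (adjusted p = 0.0834).

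Another 5 were above the limit in 1 group only, so some difference between their groups was built in by the filter, though not its size. THBS1, which encodes the activator thrombospondin, went from 5.62 ± 0.14 to 7.96 ± 0.14, and ITGB3, a β chain that pairs with ITGAV, from 5.92 ± 0.046 to 7.70 ± 0.058 (log2, SD, n = 3). Their log2 fold changes of 2.34 and 1.77 were 1.11 and 1.17 with all probe sets entered. MMP14 rose by 0.23 on the log2 scale (SE 0.052) and BMP1 by 0.58 (SE 0.057). The call of BMP1 was lost without the filter (log2 fold change 0.19, limma adjusted p = 0.0519). ITGB8, the β chain of an activating integrin, went the other way, from 7.40 ± 0.033 to 6.30 ± 0.46, and its call was lost without the filter (log2 fold change -0.13, adjusted p = 0.136). Among the 7 listed genes below the limit were LRRC32 and NRROS, which tether latent TGFβ to cell surfaces in place of an LTBP.

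Of 22 listed genes of microfibrils and matrix to which LTBPs attach, 9 were measured, 6 of them in both groups. Of these 6, 3 rose, 2 fell and 1 did not pass (median log2 fold change 0.064). Among all 9561 genes measured in both groups, 57.0% were called, 2629 higher and 2821 lower (median -0.0082). Here HSPG2, the perlecan gene, rose by 0.41 (SE 0.077), and the fibulin genes EFEMP1 and FBLN1 fell by 0.96 (SE 0.089) and 0.67 (SE 0.049) on the log2 scale. With all probe sets entered the log2 fold change of FBLN1 was -0.35. The other genes that rose, EMILIN2 and ADAMTS10, lost their calls with all probe sets entered. The 3 measured in 1 group only passed the filter through the TGFβ group, so their higher mean there was fixed in advance. They were TGM2, a transglutaminase that crosslinks LTBP1 to matrix (6.14 ± 0.16 to 8.03 ± 0.090), MFAP2 (6.57 ± 0.19 to 7.23 ± 0.048, log2, SD, n = 3) and the elastic fibre gene FBLN5 (log2 fold change 1.48, SE 0.081). The log2 fold change of TGM2 was 1.89, and 1.00 with all probe sets entered. The fibrillin genes FBN1, FBN2 and FBN3, whose products make the core of microfibrils, and FN1 were among the 13 below the limit. Fitted without the filter, 6 of these 13 were called higher and none lower. Over all 19777 genes so fitted, bright ones included, 26.8% were called, 2517 higher and 2786 lower. The 6 listed genes called higher were LOX (log2 fold change 0.89), FN1 (0.56), FBN1 (0.31), ADAMTSL2 (0.22), LOXL1 (0.21) and ELN (0.19), while FBN2 and FBN3 were not called.

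Of 8 listed genes for other binders of TGFβ, 2 were measured. TGFBR3, which encodes betaglycan, went from 8.44 ± 0.052 to 5.88 ± 0.17 (log2, SD, n = 3). It was above the limit in the untreated group only, so a lower mean with TGFβ was fixed in advance, though not its size. CD109, a surface inhibitor of TGFβ signalling, was above the limit in both groups and went from 8.45 ± 0.075 to 9.08 ± 0.059 (log2, SD, n = 3). Of 11 receptor, SMAD and regulator genes, 10 were measured, all in both groups, with 5 higher and 4 lower (median log2 fold change 0.085). Over all 9561 genes so measured the same 57.0% were called, 2629 higher and 2821 lower, with a median of -0.0082. The receptor gene TGFBR2 (-0.65, SE 0.052) and SMAD3 (-0.88, SE 0.050), a transcription factor of the pathway, had the largest falls, and SMAD4 (-0.26) and SMAD2 (-0.17) smaller ones. The negative regulators SMURF2 (1.08, SE 0.067), SMAD7 (1.07, SE 0.10) and SKIL (1.05, SE 0.068) had the largest rises, followed by SMURF1 (0.92) and SKI (0.25), whose groups overlapped. With all probe sets entered the log2 fold changes of SKIL and SMURF1 were 0.66 and 0.52, and the calls of SMAD4 and SKI were lost (adjusted p = 0.115 and 0.421). TGFBR1 did not pass (-0.075, SE 0.052, adjusted p = 0.255).

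**Figure D4:**
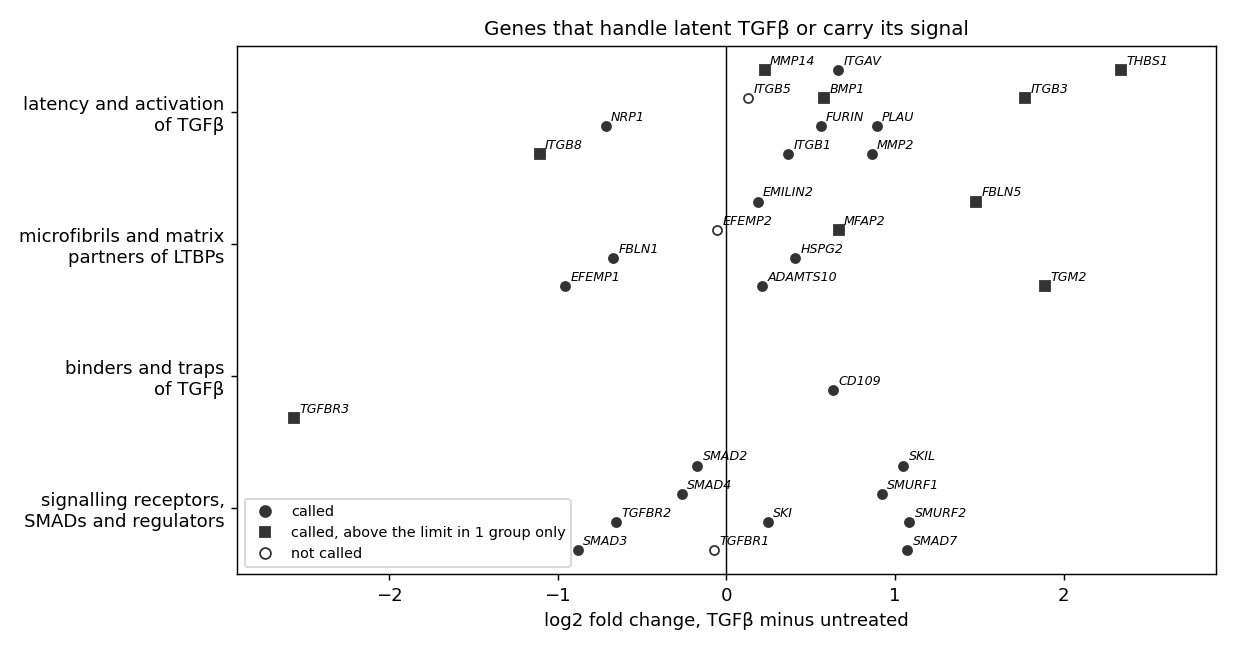
Log2 fold change, TGFβ minus untreated (horizontal axis), of each measured gene of the 4 lists on the vertical axis (n = 3 arrays per group), with vertical offsets for legibility only. Filled symbols passed limma at an adjusted p under 0.05, and squares mark genes above the signal limit in 1 group only. TGFBR3 lies lowest at -2.57 and THBS1 highest at 2.34.

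The genes whose profiles over the 6 arrays were closest to those of the members were found by the Euclidean distance between log2 values taken relative to the untreated mean. This measure is governed by the size of the change with TGFβ, and with 3 arrays a group it is only a description. Nearest to TGFB1 were HSPB1, S100A3 and GADD45B, at distances of 0.078, 0.083 and 0.112. Nearest to TGFBI were WNT5B, GALNT2 and S100A3 (0.091 to 0.158), and nearest to TGFB2 were ABCE1, TUBA1A and SAMD1 (0.036 to 0.047). LTBP2 had no close neighbour, the nearest being FOXS1 (0.452), COL1A1 (0.543) and PLEK2 (0.652). For LTBP1 they were SCAF8, SPATA7 and HYCC2 (0.049 to 0.052), and for LTBP3, a profile without a called change, PREX1, SAC3D1 and CD2AP (0.071 to 0.075). Of these neighbours, FOXS1 and WNT5B had untreated means of 5.14 and 6.59, below the limit. Some rise of FOXS1 and WNT5B with TGFβ was thus built in by the filter, though not its size.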

How the data were processed

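The data were 6 Affymetrix U133 Plus 2.0 arrays of Panc-1 cells, 3 untreated and 3 with TGFβ. The deposited table holds log2 signals, 1 per probe set and array, from 2.89 to 14.8. The software, background step and normalisation that the authors applied are not given in the sources used here. Precision is limited by how many arrays there are.

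Of 54675 probe sets 62 controls were left out. Genes were named by the platform's annotation, with symbols updated through Entrez ID and the RefSeq table (19735 of 19777 found). Probe sets with a mean log2 signal below that of 100 in both groups were left out, which left 19101, and a gene was the mean of its remaining probe sets that name it alone. Differences were tested with limma 3.58.1 (R 4.3.3, lmFit and eBayes, two-sided) over all features with the replicate number as a block, after the paired test of the study's methods, and a Benjamini-Hochberg adjusted p under 0.05 was called. Values without the filter come from the same fit on all probe sets. The fit was also run on simulated data with changes planted in a small part of the genes, which does not cover calls as common as those here. Promoters came from a RefSeq table that held all 8 genes.

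The members, lists and naming rule were chosen with earlier results of these data known. All members are named, and in each list up to 4 called genes with the largest change in each direction, beside genes named for their role after their values were seen. The 3 nearest profiles were named for each member measured. Alternatives covered the block, filter, normalisation, a constant of 16 before the logarithm, the variance model, the methods' t-test, _x_at probe sets, the probe set per gene and each replicate left out.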

Additional observations from a re-analysis of the deposited data

How the results depend on the processing

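LTBP2, TGFB1 and TGFBI stayed higher and called under all 14 alternatives run for each (log2 fold change 3.26 to 3.49, 0.79 to 1.41 and 1.29 to 1.36), and TGFB1 was at the low end only where its dim probe set entered. TGFB2 ran from 0.33 to 0.46 and LTBP1 from -0.42 to -0.21, with no change of sign. In the methods' t-test with Benjamini-Hochberg adjustment TGFB2 (0.43) and LTBP1 (-0.26) were not past, and the counts of calls fell, on log2 values to 3 of the 6 genes, 5 of the 11 probe sets, 2414 of all genes and 3274 of all probe sets (from 5, 8, 5934 and 10524), and on linear values to 3, 3, 2337 and 2965. That test estimates each feature's spread from 3 differences alone. For LTBP3 the log2 fold change turned positive without the filter on low signal (0.041), and leaving out 1 replicate gave -0.18 to 0.041. For LTBP1 leaving out 1 replicate gave -0.33 to -0.21. Probe sets of LTBP3 ran with 1 replicate left out from -0.16 to 0.028 (219922_s_at, at 0.028 without replicate 2 and 0.028 without replicate 3) and from -0.20 to 0.055 (227308_x_at, at 0.029 without replicate 2). Same-numbered arrays deviated together in numbers 2 and 3 (r = 0.24 and 0.11 across probe sets) but not in 1 (-0.24), so the numbers do not establish a pairing, and with no replicate block the same 5 of 6 genes and 8 of 11 probe sets were called, beside 6265 of all genes and 11058 of all probe sets. Dim signal limits what can be said of TGFB3 and LTBP4.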
